A study of Mus musculus with 8 samples.

Results

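Foxo6 was silenced in the embryonic mouse cortex with the small interfering RNA siFoxO6-3, and expression was read on 4 of the 8 arrays of the study, chosen because their labels name that siRNA. Each of these arrays compared 1 pool of sorted cells that had received siFoxO6-3 with the same reference pool of cells that had received a non-targeting, scrambled siRNA. C57/BL6 embryos received 1 ug per ul of siRNA together with 1 ug per ul of a vector expressing GFP, by electroporation in the uterus at E14.5. At E16.5 the cortices were dissociated and sorted, and RNA was isolated. The scrambled pool was treated in the same way, so both channels of every array came from electroporated cells carrying GFP. The labels call the 4 siFoxO6-3 pools independent, and each merges cortices of several embryos, so the values describe pools and not animals. The other 4 arrays carried siFoxO6-2, a second siRNA against Foxo6, against the same scrambled pool. The siFoxO6-3 pool was labelled with Cy5 on replicates 2 and 4 and with Cy3 on replicates 1 and 3.

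Foxo6 is a member of the FoxO family of forkhead transcription factors, which are held in the cytoplasm when insulin and PI3K signalling activates Akt and enter the nucleus when that signal is low. Foxo6 is known for its expression in the developing and adult brain. Plxna4 encodes plexin A4, a receptor through which semaphorins steer growing axons and migrating neurons, and the title of the study names it. A pair of siRNAs against the same mRNA is usually compared because each may also act on other transcripts.

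The siRNAs are shown because the comparison rests on which one a pool received. Capitals mark the defined bases, and each leading n stands for a base the labels do not specify.
siFoxO6-3: nnCCAUCAGCCUUAUGACGCU
siFoxO6-2: nnACAUGCCAGUGACGACUAC
Each has 19 defined and 2 unspecified bases, and the longest run the defined parts share is 5 bases. Which strand of the duplex is printed, and where on Foxo6 each lies, is not given in the sources used here.

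Values are log2 ratios of the siFoxO6-3 channel over the scrambled channel, after correction for background and for the dependence of the ratio on brightness (loess). In these units 1 is a doubling and -1 a halving. The arrays held 25310 genes or unnamed probes, of which 18322 had a symbol. The median siFoxO6-3 signal was 107, 123, 114 and 58.0 on replicates 1 to 4, so replicate 4 was the dimmest. The median scrambled signal was 77.7, 83.9, 67.5 and 68.6. Raw signals below are read against these medians, of which that of siFoxO6-3 was the higher on replicates 1 to 3 and the lower on replicate 4. Replicate 4 also resembled the others least: its ratios correlated across genes with those of replicates 1, 2 and 3 at 0.05, 0.35 and 0.13, against 0.28 to 0.57 among those 3. Genes are not independent replicates, and these correlations are descriptions. The scrambled pool was a single pool with no replicate of its own. All p-values against it therefore leave out its spread, and if it is given the spread of an siRNA pool no gene is called with siFoxO6-3 by limma. Of the 25310 tested, 396 then have an unadjusted p under 0.05, fewer than chance alone would give at that limit. This setting counts the whole residual spread of an array, its measurement noise included, as spread of the pool. It is therefore severe, and the count does not show that nothing changed. The missing spread of the scrambled pool limits every call below.

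The sorted cells carried the markers of the developing cortex. Neurod6 and Neurod2 of excitatory neurons, Tbr1 and Bcl11b of deep-layer neurons, Pax6 and Sox2 of radial glia and Eomes of intermediate progenitors gave signals above the empty control spots in both channels of all 4 arrays. So did Csf1r and Cx3cr1 of microglia, Cldn5 of endothelial cells, the red blood cell gene Hbb-b1 and the interneuron genes Gad1 and Dlx2. None of these genes was called with siFoxO6-3. In bulk RNA, fewer cells of a type and less RNA per cell cannot be told apart.

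The targeted gene came first. The siFoxO6-3 channel read a Foxo6 intensity of 870, 932, 1625 and 233 on replicates 1 to 4, and the scrambled channel read 1238, 1286, 1156 and 1054. Before normalization Foxo6 was thus dimmer in the siFoxO6-3 channel on replicates 1, 2 and 4 and brighter on replicate 3. After loess, which sets each ratio against those of spots of like brightness on the same array, the log2 ratios were -1.36, -2.31, -1.21 and -1.74. All 4 were below 0, and replicate 2 was the lowest. The fitted fall of Foxo6 was -1.65 with a standard error of 0.10 over 4 arrays (limma adjusted p = 0.0079), which leaves 0.318 of the scrambled level. It was the deepest fall among the called genes with a symbol and a signal above the median. The call was lost without replicate 1 (-1.64, limma adjusted p = 0.138) or without replicate 2 (-1.53, limma adjusted p = 0.0595), and with median centring in place of loess (-1.06, limma adjusted p = 0.285). No call was made for the other family members Foxo1 (0.05), Foxo3 (-0.00) and Foxo4 (0.01).

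Plxna4 had intensities of 905, 965, 1160 and 206 in the siFoxO6-3 channel and 911, 641, 671 and 546 in the scrambled channel. The raw signals were therefore close to equal on replicate 1, higher with siFoxO6-3 on replicates 2 and 3, and lower on replicate 4. Its log2 ratios relative to genes of like brightness were -0.85, -1.16, -0.84 and -0.95, all below 0 and within a narrow range. Plxna4 fell by 0.95 (SE 0.13, n = 4 arrays, limma adjusted p = 0.032), and stood at -0.40 (limma adjusted p = 0.358) with median centring. Leaving out any 1 of the 4 siFoxO6-3 arrays gave -0.84 to -1.03 and lost the call. The next brightest Plxna4 probe stood at -0.07, so the fall rests on 1 probe.

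**Figure D1:**
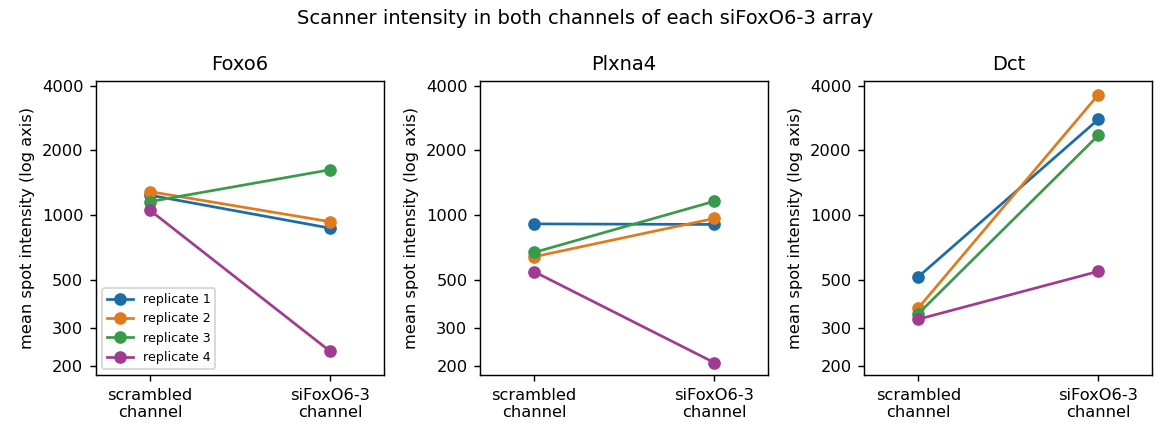
Mean spot intensity of Foxo6, Plxna4 and Dct in the scrambled and the siFoxO6-3 channel of each array, on a log axis and before any correction. Each line joins the channels of 1 array. Before the normalization by brightness, Dct was brighter with siFoxO6-3 on all 4 arrays, Foxo6 on replicate 3, and Plxna4 on replicates 2 and 3.

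Across the array, 228 of the 25310 genes and unnamed probes were called with siFoxO6-3 at a limma adjusted p under 0.05, which is 0.901% of those tested. Of these, 107 rose (0.423%) and 121 fell (0.478%), and 195 had a gene symbol. Changes were mostly modest: 39 rises and 36 falls exceeded 1.5-fold, and 5 of each exceeded 2-fold. The sign was the same on all 4 arrays for 227 of the 228, against 21.9% of everything tested, a share that the test itself favours. Called genes were bright, with 218 above the median intensity. Of all 25310, 13288 had a positive and 12022 a negative fitted ratio. At an unadjusted p under 0.05, 2001 lay above and 1892 below 0, the background for such counts in the lists below. Without replicate 4, the array that stood apart, 23 were called (0.0909%), and without replicate 1 or replicate 2 none was, with 2618 and 2582 at an unadjusted p under 0.05.

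**Figure D2:**
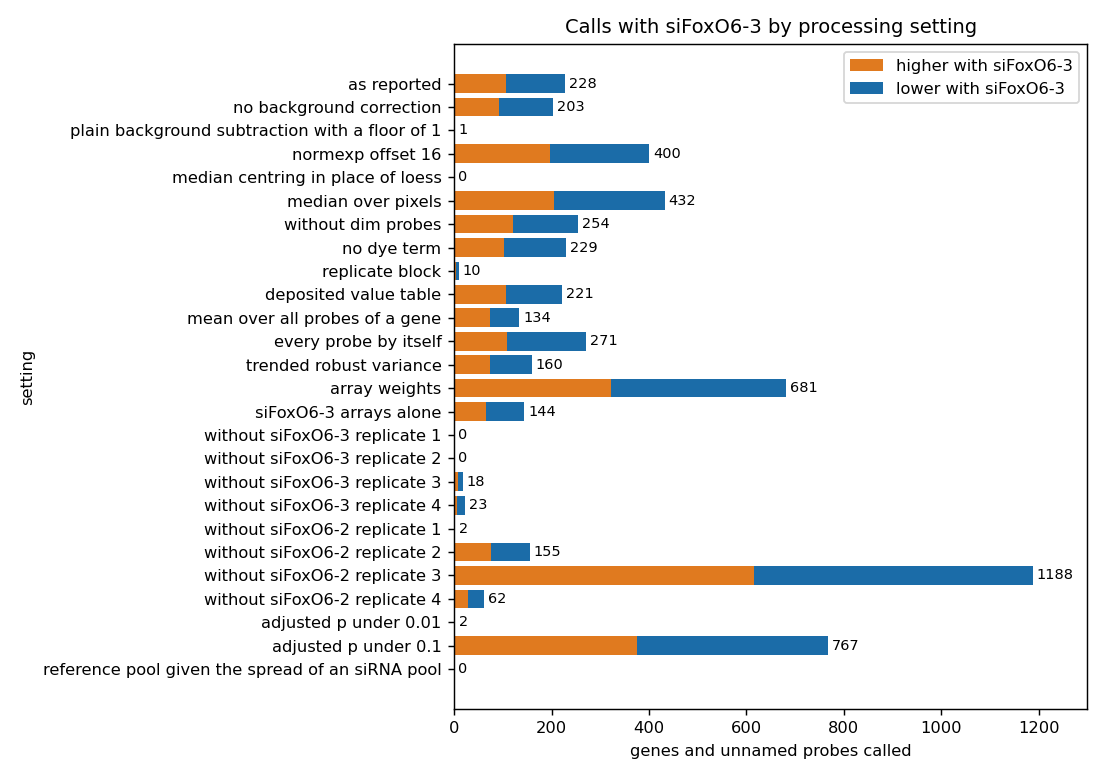
Number of genes and unnamed probes called with siFoxO6-3 (horizontal axis) under each processing setting (vertical axis), divided into rises and falls. The count was 228 as reported and lay between 0 and 1188 over the settings.

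The normalization set the size of the changes. With median centring in place of loess, all 23 called rises described by size or list were larger (0.78 to 1.90) and all 21 such falls were nearer to 0 (-1.06 to -0.03), and limma called none of them. The values below are those after loess.

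Among the 15 largest rises, Dct came first. Dct encodes dopachrome tautomerase, an enzyme of melanin synthesis that forebrain progenitors also express. Its signal was 2789, 3633, 2352 and 548 with siFoxO6-3 and 517, 370, 348 and 328 in the scrambled pool. The siFoxO6-3 channel was the brighter on every array, although on replicates 1 to 3 its median over all probes was also the higher. The log2 ratios were 1.56, 1.48, 1.11 and 1.16. Dct rose by 1.33 (SE 0.13, n = 4 arrays, limma adjusted p = 0.022), or 2.51-fold. With siFoxO6-2 its log2 ratios were -0.10, -0.45, 0.40 and 0.01. Dct was named for its rise with siFoxO6-3, which favours such a gap. The difference between the siRNAs was 1.36 (SE 0.18), with a limma adjusted p of 0.16. Of the 17 measured genes of melanin synthesis and melanocytes Dct alone was called, where 0.423% of everything tested were called higher. Tyr, which encodes tyrosinase, was above the empty spots in the siFoxO6-3 channel of 2 arrays and stood at 0.01.

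Scrg1 encodes a small secreted protein found in glia. Its log2 ratios were 0.97, 0.97, 0.98 and 1.50, with replicate 4 above the other arrays, which were nearly equal. It rose by 1.10 (SE 0.10, limma adjusted p = 0.023), against 0.14 with siFoxO6-2. Olig1, a transcription factor of the oligodendrocyte lineage, had log2 ratios of 0.58, 0.52, 0.64 and 0.72, close together on all arrays. It rose by 0.62 (limma adjusted p = 0.033) and stood at 0.51 with siFoxO6-2. Scrg1 and Olig1 were the 2 of 24 measured oligodendrocyte and astrocyte genes that were called, where 0.423% of everything tested were called higher. The list median was 0.07, against 0.005 for everything tested.

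Histone and cell cycle genes are given by list; of everything tested, 0.423% rose. Hist1h1c, now H1f2, a linker histone, had log2 ratios of 0.97, 0.88, 1.27 and 0.93, and its second probe rose by 0.96 (limma adjusted p = 0.017). Hist1h2bc, now H2bc4, which encodes a core histone H2B, rose by 0.89 with replicate 4 lowest at 0.43. These were the 2 called among 35 measured histone genes, whose median was 0.07. Cks2, a small partner of the cyclin-dependent kinases, had ratios of 0.94, 0.77, 1.29 and 0.37 and rose by 0.84 (limma adjusted p = 0.048), with its second probe at 0.74. Nek2, a kinase of the centrosome, rose by 0.51 and Cdkn2d, an inhibitor of the G1 kinases, by 0.43. Rpa3, a subunit of the single-strand DNA binding complex of replication and repair, rose by 0.78, and Rad23b, which acts in nucleotide excision repair and in delivery to the proteasome, by 0.90.

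Cks2 and Nek2 were the 2 called among 49 measured genes of the G2 and M phases. Of these 49, 44 had a positive fitted ratio and 22 an unadjusted p under 0.05 on the positive side. Of the 25310 tested, 13288 were positive and 2001 had such a p on that side. The list median was 0.27, 0.40 and 0.44 on replicates 1, 2 and 3, and -0.12 on replicate 4. The 4 arrays thus did not run the same way: the 3 brighter arrays were above 0 and the dim one below. The median of the fitted values was 0.28, and 0.43 without replicate 4 (0.76 with median centring). None of 48 measured S phase genes was called, with 4 at an unadjusted p under 0.05 above and 9 below, and their list median was -0.04 (0.29 with median centring). Uhrf1, which maintains DNA methylation in S phase, came nearest, with ratios of -0.90, -0.61, -0.26 and -0.62 and a limma adjusted p of 0.057 (fitted value 0.02 with median centring).

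The other large rises had varied roles. Xlr4b, of an X-linked family named for its lymphocyte expression, had log2 ratios of 1.77, 0.28, 1.78 and 0.59, high on replicates 1 and 3, the arrays with the siRNA pool in Cy3, and low on the other two. It rose by 1.11 (SE 0.15, limma adjusted p = 0.035), and without the dye term its limma adjusted p was 0.14. The gene 1110002B05Rik, now Sptssa, encodes a small subunit of the enzyme that starts sphingolipid synthesis and rose by 1.02 (ratios 1.33, 1.05, 0.89 and 0.81). Ddr1, a receptor kinase for collagen, rose by 0.79 and was likewise higher on replicates 1 and 3 (1.29 and 0.99) than on 2 and 4 (0.49 and 0.40). Nme4, a mitochondrial nucleoside diphosphate kinase, rose by 0.88 and Prelp, a proteoglycan of the extracellular matrix, by 0.85. Synpr, a synaptic vesicle protein, rose by 0.80 and Cd9, a tetraspanin of the cell membrane, by 0.76. Gm14325 rose by 0.94.

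**Figure D3:**
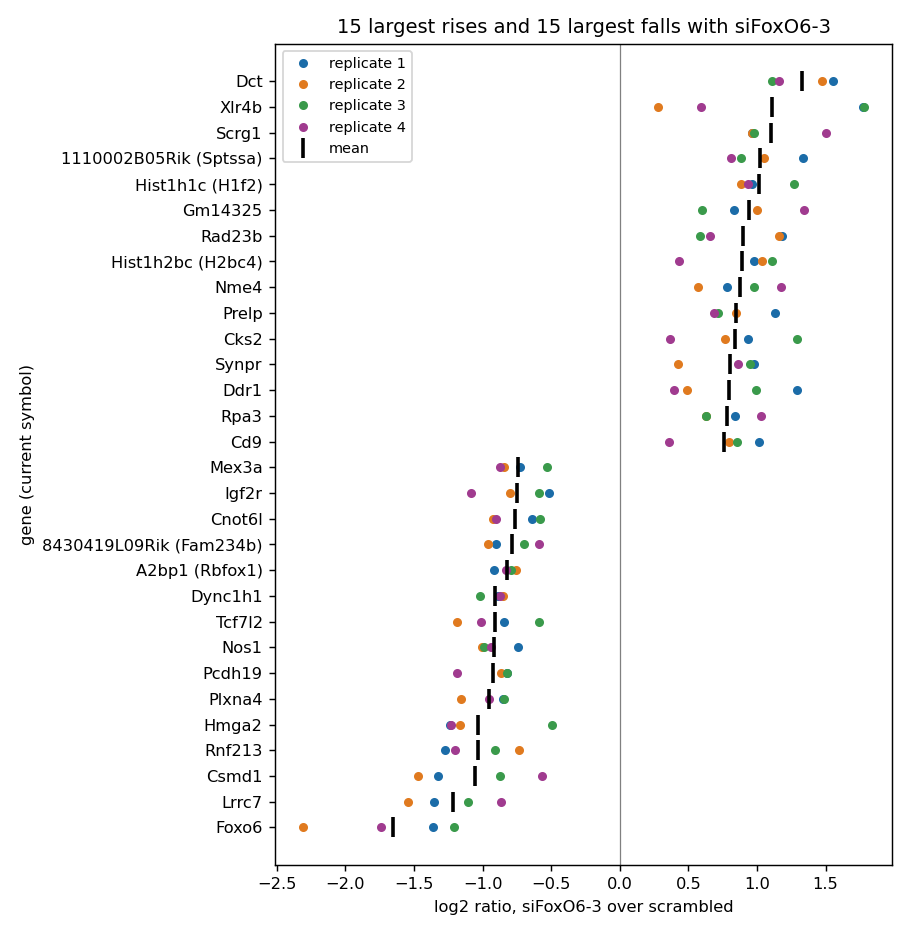
Log2 ratio of siFoxO6-3 over scrambled (horizontal axis) on each of the 4 arrays (points) with the mean (black bar) for the called genes above the median intensity that rose most (15) and fell most (15). All points of a gene lie on 1 side of 0; the widest spread among the rises was that of Xlr4b, from 0.28 to 1.78.

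The next largest falls after Foxo6 were those of Lrrc7, Csmd1, Rnf213 and Hmga2. Lrrc7, which encodes the postsynaptic scaffold densin, had signals of 149, 160, 183 and 70.7 with siFoxO6-3 against 248, 205, 177 and 167 in the scrambled pool. Raw signal was lower on replicates 1, 2 and 4 and slightly higher on replicate 3, and the log2 ratios were -1.36, -1.54, -1.11 and -0.87. Lrrc7 fell by 1.22 (SE 0.16, limma adjusted p = 0.032). Dlgap4, another postsynaptic scaffold, fell by 0.55 (-0.06 with median centring), which made 2 of 27 measured genes of that list. Csmd1, a giant membrane protein with complement control domains, fell by 1.06 (ratios -1.32, -1.47, -0.87 and -0.57). Dscam, an adhesion molecule of neurite spacing, fell by 0.47, and Csmd1 and Dscam were the 2 called of 32 long adhesion genes. Both list counts stand beside the 0.478% of everything tested that was called lower. Pcdh19, a protocadherin, fell by 0.93 and Nos1, the neuronal nitric oxide synthase, by 0.92.

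Dync1h1, the heavy chain of the dynein motor that moves cargo and nuclei along microtubules, fell by a like amount on every array. Its log2 ratios were -0.89, -0.85, -1.02 and -0.88, and it fell by 0.91 (SE 0.05, limma adjusted p = 0.0079). With Foxo6 it was 1 of 2 genes still called at an adjusted p under 0.01. It was the single call among 36 measured genes of neuronal migration, of which 24 were negative and 8 had an unadjusted p under 0.05 on that side. Of the 25310 tested, 0.478% were called lower, 12022 were negative and 1892 had such a p on that side. The median of that list was -0.13 after loess and 0.38 with median centring, so its direction depends on the normalization.

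Hmga2, a chromatin protein of young neural progenitors, had log2 ratios of -1.23, -1.17, -0.49 and -1.23, with replicate 3 apart from the rest, and fell by 1.03 (limma adjusted p = 0.031). Igf2bp1, an RNA-binding protein that like Hmga2 is repressed by let-7 microRNAs, fell by 0.47. They were 2 of 12 measured genes of the Hmga, Lin28 and Igf2bp list. Of everything tested, 0.478% were called lower, which is the background for the lists of this paragraph. Tcf7l2, a transcription factor that carries the Wnt signal to DNA, fell by 0.91 and was the single call among 48 genes of the Wnt, Notch and Hedgehog pathways. A2bp1, now Rbfox1, a neuronal splicing regulator, had ratios of -0.92, -0.76, -0.79 and -0.83, and its second probe fell by 0.90 (limma adjusted p = 0.026). Mex3a, an RNA-binding protein of progenitors, fell by 0.74 and stood at -0.03 (limma adjusted p = 0.93) with median centring. Cnot6l, a subunit of the complex that shortens poly(A) tails, fell by 0.76.

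Rnf213, a giant ubiquitin ligase induced by interferon, fell by 1.03 and was the single call among 37 interferon genes, against 0.478% of everything tested called lower. Igf2r, the receptor that takes up and clears Igf2, fell by 0.75 (-0.21 with median centring), with ratios from -0.52 to -1.08. The gene 8430419L09Rik, now Fam234b, fell by 0.79 and its second probe by 0.57 (limma adjusted p = 0.034).

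Genes with several probes allowed a check within the arrays. Of the 30 genes with the largest changes, 17 had another probe that exceeded the empty spots on each of the 4 arrays. It had the same sign in 14 of them and was itself called in 4, which are Hist1h1c, Cks2, A2bp1 and 8430419L09Rik. In 12 of the 17 the second probe lay within 0.2 of 0, among them Rad23b (-0.05), Lrrc7 (-0.04), Csmd1 (-0.04), Hmga2 (-0.01), Tcf7l2 (0.02) and Dync1h1 (-0.00). That of Rnf213 (-0.03) exceeded the empty spots on 3 arrays, so Rnf213 is not among the 17. The second probe is by the rule the dimmer one, and which probe follows the mRNA was not tested. Over all called genes, 84 of 114 second probes had the same sign. Outside the 30, the second probes of the called list members Igf2bp1 (0.01), Clic6 (-0.00), Dlgap4 (-0.05) and Rps19 (0.14) also exceeded the empty spots on each array. None of these second probes was called, and that of Rps19 was nearly as bright as the first. Foxo6, Scrg1, Mex3a, Igf2r and Ddr1 each had 1 probe, so no such check was possible for them.

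The lists for FoxO signalling and axon guidance are read against the 0.901% called of everything tested, and a share near it is no result about a list. Of 45 measured genes reported as FoxO targets in other tissues, none was called by limma, although 5 lay above and 4 below 0 at an unadjusted p under 0.05; Pik3ip1 stood at 0.22 and Ccnd2 at -0.38 (0.07 with median centring). Of 25 genes of the PI3K, Akt and mTOR pathway none was called, with 6 below 0 at an unadjusted p under 0.05. Pik3ca, the catalytic subunit of PI3K, had ratios of -0.87, -1.19, -0.67 and -1.51, all below 0, with a limma adjusted p of 0.057. The second Pik3ca probe exceeded the empty spots on 4 arrays and stood at 0.13. Plxna4 was the single call among 31 measured plexins, semaphorins and neuropilins. Of these 31, 25 were negative, with a median of -0.04 (0.20 with median centring), and the coreceptor Nrp1 stood at -0.62 (limma adjusted p = 0.06). None of 40 other axon guidance genes was called, with 4 above and 10 below 0 at an unadjusted p under 0.05.

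Cell type markers are also set beside that 0.901%. Crym and Pcp4, markers of deep-layer neurons, rose by 0.73 each, with ratios of 0.86, 0.65, 0.70 and 0.70 for Crym and 0.87, 0.51, 0.69 and 0.84 for Pcp4. Both were higher on every array, and Rprm of the same list stood at 0.49 (limma adjusted p = 0.052). They were 2 calls of 18, and the list median was 0.04. Of the 18, 12 were positive and 6 negative, with 4 above and 3 below 0 at an unadjusted p under 0.05. Bcl11b, a transcription factor of deep-layer projection neurons, stood lowest at -0.65 (limma adjusted p = 0.107). The interneuron gene Sst, somatostatin, fell by 0.30 (-0.03 with median centring), the single call among 24 measured interneuron genes. Clic6, an ion channel of the choroid plexus, fell by 0.64, the single call among 20 measured meningeal and choroid plexus genes. No call was made by limma among 31 radial glia markers, 18 of intermediate progenitors, 18 of upper layers, 21 of neurons in general, 10 of Cajal-Retzius cells, 24 of microglia, 27 of endothelium and 15 of red blood cells. At an unadjusted p under 0.05 those 8 lists held between 0 (Cajal-Retzius cells) and 15 (radial glia) members.

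Among genes of stress and metabolism, Ddit4, an mTOR inhibitor induced by p53 and by low oxygen, rose by 0.40. Car9, a carbonic anhydrase induced by low oxygen, rose by 0.51, and they were 2 of 32 genes of glycolysis and hypoxia. Of everything tested, 0.423% were called higher, which is the background for the counts of rises here. Zmat3, a p53 target, fell by 0.66 (-0.09 with median centring). Rps19 was the single call among 38 cytosolic ribosomal protein genes, at 0.41. The median of the ribosomal genes was 0.44 on replicate 4 and between -0.07 and 0.05 on the others. That of 53 respiratory chain genes, none called by limma with 10 above and 4 below 0 at an unadjusted p under 0.05, was 0.32 on replicate 4 and between -0.06 and 0.00 on the others. Replicate 4 thus stood apart in both lists. Without it Rps19 stood at 0.42 and was not called (limma adjusted p = 0.0925).

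**Figure D4:**
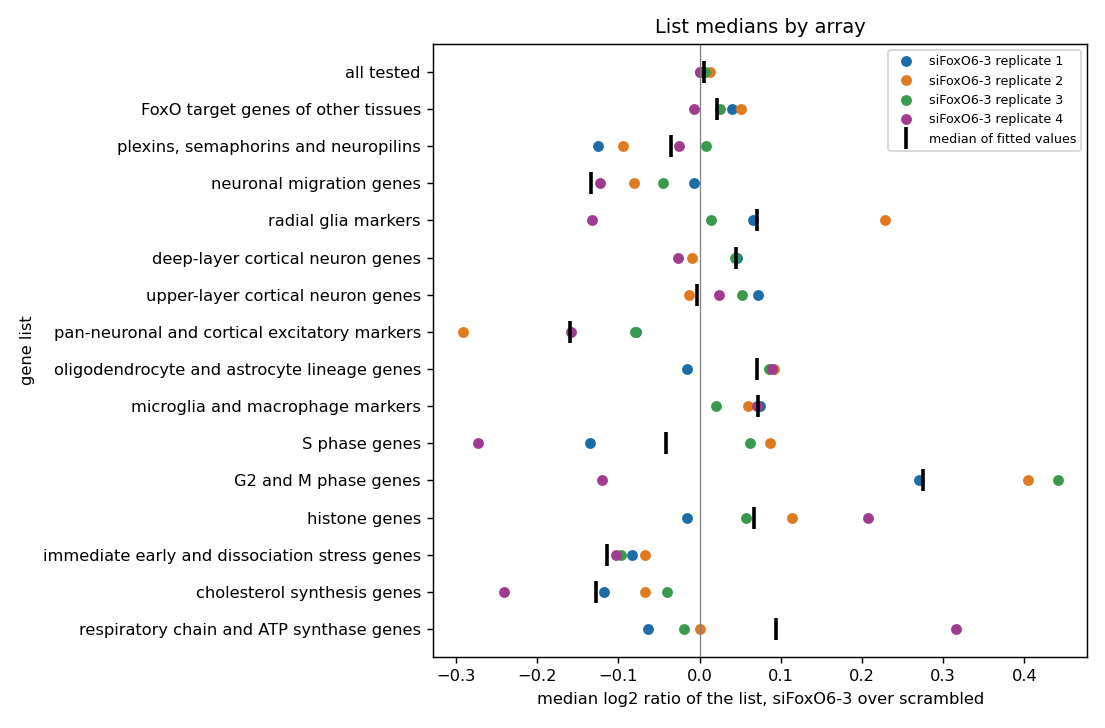
Median log2 ratio, siFoxO6-3 over scrambled (horizontal axis), of the genes of each list (vertical axis) on each array (points), with the median of the fitted values (black bar). Replicates 1 to 3 lie above 0 for the genes of G2 and M and replicate 4 below; replicate 4 is the highest for the respiratory chain. Lists with a negative median are positive with median centring.

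The deepest ratios of all were in digestive enzymes of the pancreas, none of which was called. Amy1, an amylase, had signals of 500, 830, 546 and 203 with siFoxO6-3 against 10908, 969, 820 and 1321 in the reference channel. The reference signal of replicate 1 was far above that of the other arrays, although the same scrambled pool was named for all. The log2 ratios were -5.34, -2.02, -2.16 and -2.25, with a mean of -2.94 (limma adjusted p = 0.077). Pnlip, a lipase, was likewise lowest on replicate 1 (-5.00, -1.93, -1.69 and -1.53). The second probes of Amy1 (0.17) and Pnlip (0.20) exceeded the empty spots on all 4 arrays and lay above 0, so each fall rests on 1 probe. Over the whole list of 24 measured acinar genes none was called by limma, 6 lay below 0 at an unadjusted p under 0.05, and the median was -0.04 (0.00 with median centring).

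The siRNAs shared the scrambled pool, so a deviation of that pool would appear in both, and the values below are given side by side with the test of the difference, in which the pool cancels. With siFoxO6-2, 2224 genes were called (8.79%). For siFoxO6-3 minus siFoxO6-2, 1 gene was called by limma (0.00395%) and 1838 had an unadjusted p under 0.05. That gene was Sufu, a repressor of Hedgehog signalling. Its ratios were -0.15, -0.40, 0.21 and -0.41 with siFoxO6-3 and -1.20, -1.48, -1.11 and -1.55 with siFoxO6-2. Sufu was picked by this difference, so the separation of these values adds nothing to the test. The difference was 1.15 (SE 0.08, limma adjusted p = 0.044).

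The Foxo6 ratio was -1.65 with siFoxO6-3 against -0.95 with siFoxO6-2, and the values per array overlap, since siFoxO6-2 reached -1.30 and -1.21. Plxna4 stood at -0.95 and -1.16, Dync1h1 at -0.91 and -1.06, and Csmd1 at -1.06 and -1.10. Among the rises, Sptssa stood at 1.02 and 1.05, and Crym at 0.73 and 0.72. Hist1h1c (1.01 and 0.25), Cks2 (0.84 and 0.11) and Igf2r (-0.75 and -0.23) lay nearer to 0 with siFoxO6-2. Xlr4b (1.11 and 2.06) and Ddr1 (0.79 and 1.37) lay farther from 0 with it. For the 30 genes the difference ran from -0.95 to 1.36, with limma adjusted p from 0.16 to 0.991, so none of these gaps passed the test. The genes were chosen by their values with siFoxO6-3, which favours larger values there. For the genes of G2 and M the list median was 0.28 with siFoxO6-3 and -0.18 with siFoxO6-2.

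**Figure D5:**
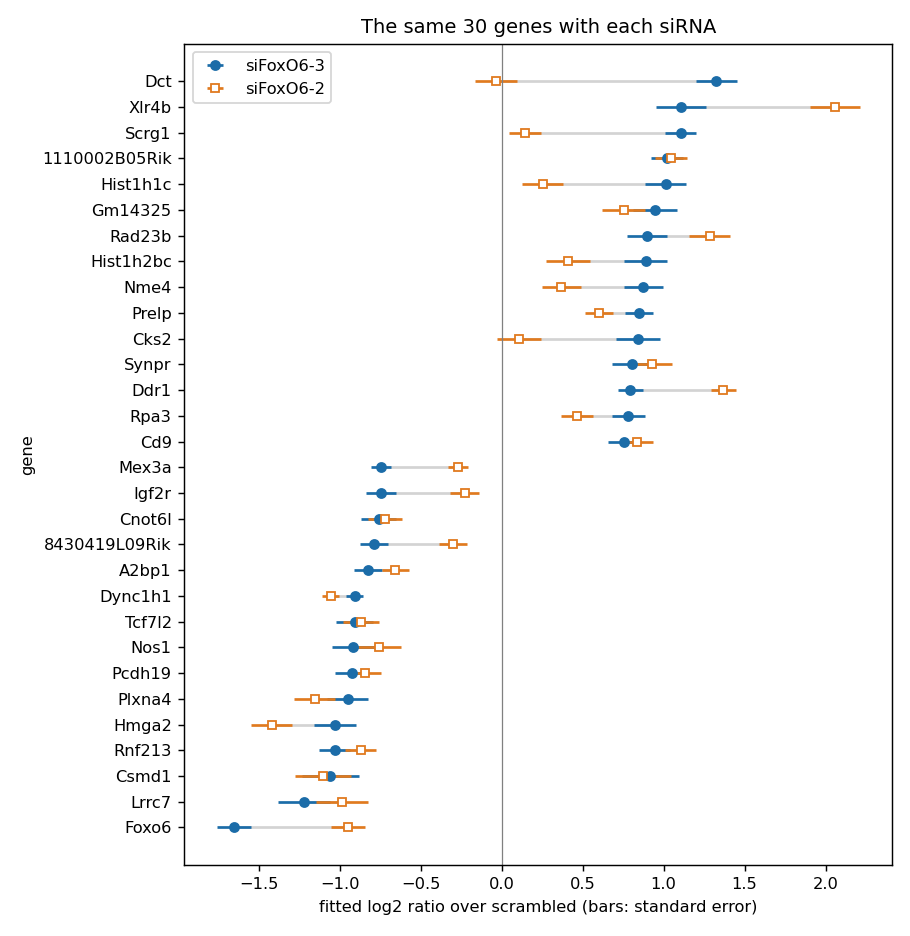
Fitted log2 ratio over scrambled (horizontal axis, bars are standard errors) of the same 30 genes with siFoxO6-3 (filled circles) and siFoxO6-2 (open squares). Dct, at 1.33 and -0.04, shows the widest gap, and Csmd1, Sptssa (shown as 1110002B05Rik) and Cnot6l nearly coincide.

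Genes that fell were longer than those that rose. In the RefSeq annotation of GRCm38.p6, the median span from start to end was 61.0 kb for the 100 called falls with a symbol and 12.3 kb for the 95 called rises, against 19.5 kb for all tested genes with a span. Spans over 200 kb belonged to 11% of the falls, 3.16% of the rises and 5.08% of all. Lrrc7, Csmd1, Plxna4 and Rbfox1 are among the long falls, and Synpr, which rose, spans 331 kb. These rises and falls are the calls after loess. The comparison was made after other results of these data were known and has no test here.

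The promoter windows were read for the forkhead motif GTAAACA on either strand (TGTTTAC on the opposite one). A window runs from 250 bases before to 50 bases after an annotated start in RefSeq, GRCm38.p6. The motif was in the windows of 4 of 79 called rises (5.06%) and 3 of 83 called falls (3.61%) that had a window, and of 3.52% of 14673 tested genes. Among the 25 genes of the largest changes with a window, 0 held it. The shares were near the background. A match is no binding site, and the absence of these letters says nothing of Foxo6. The following windows are those of the called genes with the motif that rose most (Tmsb15b2, 0.75) and fell most (Ube2h, -0.37), with the motif in capitals.
Tmsb15b2, chrX:136957930-136958229, minus strand: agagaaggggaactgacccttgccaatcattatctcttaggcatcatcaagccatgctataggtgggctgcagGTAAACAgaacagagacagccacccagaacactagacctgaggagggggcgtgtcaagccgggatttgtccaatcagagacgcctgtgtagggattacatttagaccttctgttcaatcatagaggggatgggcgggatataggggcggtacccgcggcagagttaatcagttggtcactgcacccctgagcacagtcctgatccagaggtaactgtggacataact
Ube2h, chr6:30243754-30244053, minus strand: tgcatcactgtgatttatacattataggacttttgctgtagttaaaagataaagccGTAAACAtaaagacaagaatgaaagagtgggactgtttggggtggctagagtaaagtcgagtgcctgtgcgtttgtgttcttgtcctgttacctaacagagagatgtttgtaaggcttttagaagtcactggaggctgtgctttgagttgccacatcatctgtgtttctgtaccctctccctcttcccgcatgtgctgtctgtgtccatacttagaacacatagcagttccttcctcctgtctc
Tmsb15b2 encodes a thymosin, a small actin-binding protein, and its ratios were 0.80, 0.45, 0.73 and 1.02, all above 0. Ube2h is a ubiquitin-conjugating enzyme, with ratios of -0.27, -0.34, -0.38 and -0.49, all below 0. The motif began 177 bases before the start in Tmsb15b2 and 194 bases before it in Ube2h.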

How the data were processed

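Spot intensities of both channels, with a local background intensity, came from the scanner files as the authors deposited them, uncorrected per the file headers. A deposited value table gives a log2 ratio per spot, siRNA over scrambled, centred near 0. How it was made is not given in the sources used here, and it served as an alternative. On the siFoxO6-3 arrays its r with the ratios after background correction and loess was 0.85 to 0.94.

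Mean intensities were corrected by normexp (offset 50) and loess within arrays, control spots at weight 0. Loess assumes that most genes of any brightness do not change. Ratios were turned by dye and fitted with limma 3.58.1 in R 4.3.3 over all 8 arrays, with 1 coefficient per siRNA and a dye term per gene (5 residual degrees of freedom). Tests were two-sided and adjusted by Benjamini-Hochberg over 25310 genes and unnamed probes; calls needed an adjusted p under 0.05. Of 41174 gene probes, 34186 had 1 symbol, 0 several and 6988 none; the brightest probe stood for a gene. Current symbols came from RefSeq, in which 16254 symbols were found directly and 2020 as synonyms. Of 1133 list genes in 41 lists, 1042 matched. A signal was above the empty spots when it exceeded the 97.5th percentile of 959 empty controls. The number of arrays limits the precision.

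Named genes were the 15 largest called rises and falls with a symbol, the same sign on 4 arrays and an intensity above the median; Foxo6, Foxo1, Foxo3, Foxo4 and Plxna4; called list members and up to 4 per list with the smallest p; and the called differences between the siRNAs. The promoter genes Tmsb15b2 and Ube2h and the cell markers shown for the sample check fall outside this rule and were chosen after their values were seen. Members and lists were chosen with earlier results of these data known. The procedure was tested on simulated data. Alternatives covered background, normalization, probes, dye, variance, thresholds, pairing and left-out arrays.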

Additional observations from a re-analysis of the deposited data

Results flagged for a closer look

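In 170 named genes and 41 lists, 18 values with siFoxO6-3 lay far from the other 3 arrays by Dixon's gap ratio, which chance does in about 1 in 20 groups. Replicate 1 gave 7 of them, with the pancreatic enzymes Amy1 (-5.34), Pnlip (-5.00), Amy2a4 (-4.98) and Prss2 (-3.41), the matricellular gene Cyr61 (-0.24), and the medians of the oligodendrocyte and astrocyte genes (-0.02) and the Xlr family (0.12). Replicate 2 gave 2, the lysozyme gene Lyz2 (0.04) and the median of heat shock proteins (0.04). Replicate 3 gave 4, Hmga2 (-0.49), the transcription and repair factor Gtf2h5 (0.17), the cholesterol transfer gene Stard4 (0.00) and the median of the PI3K, Akt and mTOR genes (-0.03). Replicate 4, the dimmest array, gave 5: Scrg1 (1.50), Pcdh19 (-1.19), the Hedgehog effector Gli3 (-2.22), the adhesion molecule Ncam1 (-1.05) and the median of the respiratory chain genes (0.32). Of these genes, Scrg1, Hmga2 and Pcdh19 were called.

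Sufu differed between the siRNAs, by 1.15 for siFoxO6-3 minus siFoxO6-2 (limma adjusted p = 0.044).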

How the results depend on the processing

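The count of 228 calls with siFoxO6-3 was 203 without background correction, 254 without dim probes, 229 without the dye term, 221 from the deposited table, 271 with every probe by itself and 160 with trended robust variance. It moved further with a normexp offset of 16 (400), median pixels (432), array weights (681), the mean over probes (134), the siFoxO6-3 arrays alone (144), an adjusted p under 0.01 (2) or 0.1 (767), plain background subtraction (1, with 3189 unadjusted) and median centring (0, with 3617 unadjusted). It was 0 with the added reference spread (chosen after seeing the data), where Foxo6 kept its value (-1.65, limma adjusted p = 1.00). Leaving out 1 siFoxO6-3 array gave 0 to 23, and 1 siFoxO6-2 array, which enters through the shared spread, 2 to 1188 (the extremes being replicates 1 and 3). Median centring gave -1.06 for Foxo6, and leaving out 1 siFoxO6-3 array gave -1.53 to -1.75. Median centring also moved the median of all genes from 0.005 to 0.11. The difference between the siRNAs had 1 call, and 2 without background correction, 20 with array weights, 1 with an offset of 16 or without dim probes, 0 to 4 with 1 array left out, and 0 with plain subtraction (1734 unadjusted), median centring (150), median pixels (1911), no dye term (1714), the replicate block (1870), the deposited table (1786), the mean over probes (1808), every probe (2789) and trended variance (1807). The causes were not tested.

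With the replicate number as a block, 10 genes were called with siFoxO6-3 and Foxo6 stood at -1.65 (limma adjusted p = 0.047). After the fit with its dye term, the residuals of same-numbered pools of the siRNAs correlated at 0.36, -0.17, -0.32 and -0.54. In these residuals 0 of 4 matched its own number best. Before the dye term, deviations from the mean of each siRNA correlated at 0.53, 0.22, -0.10 and -0.27. Same-numbered pools had the same dye, and the dye term was fitted to both, so these values cannot decide whether the numbers pair the pools.

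All 195 called genes with a symbol kept their direction under each alternative except median centring, where 146 did. The 30 largest kept it there too. Several alternatives could not change it, since they leave the fitted value as it was. These are the dye term, the block, trended variance, the siFoxO6-3 arrays alone and the left-out siFoxO6-2 arrays. Without siFoxO6-3 replicate 1, 2, 3 or 4, still called were 0, 0, 13 and 13 of the 195. Brightness limits the rest: in the siFoxO6-3 channel, 72.9% to 87.2% of probes exceeded the empty spots.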
